A study of Saccharomyces cerevisiae with 18 samples.

Results

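PRM2, PRM4, PRM5, PRM7, PRM8, PRM9 and PRM10 are 7 of the genes named for pheromone-regulated membrane proteins in Saccharomyces cerevisiae. They were taken by name, as the PRM genes other than PRM1, PRM3 and PRM6, from the 7124 genes of the expression table, and their promoters were looked up in the list of 2188 calling-card peaks. Yeast cells that sense pheromone from the opposite mating type signal through a receptor, a G protein and a MAP kinase cascade to the transcription factor Ste12, which binds pheromone response elements and switches on genes for arrest, cell fusion and nuclear fusion. PRM genes were first grouped because pheromone induces them and because their products have predicted membrane-spanning segments. They are not 1 family by sequence and do not share 1 function.

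Expression was measured by RNA-seq in BY4705 MATα cells whose genomic STE12 was deleted and which carried STE12 on a centromeric plasmid under its own promoter. The plasmid encoded wild-type Ste12 or 1 of 6 forms with a single amino acid change in the DNA-binding domain, with 5 replicates each, 35 libraries in all. The cells were in exponential growth, no pheromone treatment is named, and STE12 in every group came from a plasmid. A160P, K146D and K152L were chosen by the study as variants that mate poorly, K152L and K146D being also hyper-invasive, whereas K150A, K150I and S158H mate like wild type. Of these, K150A and K150I are hyper-invasive and S158H is defective for invasion. Binding was measured with calling cards, in which Ste12 fused to the PiggyBac transposase marks nearby DNA with a transposon. The fusions, wild type and the same 6 variants with 2 replicates each, were expressed under the GAL1 promoter, which galactose induces, in BY4705 MATα cells that kept their own STE12, so the 2 assays differ in the source and amount of Ste12. What separates replicates is not stated, and p-values therefore measure only the spread between these libraries, which may be technical.

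RNA-seq libraries held 1039390 to 5481822 unique molecular identifiers (UMIs, tags that count molecules rather than PCR copies), with a median of 3422118. Levels are given as UMIs per 1000000 (CPM) after scaling of the libraries. The calling-card libraries held 5904 to 12778 UMIs in peaks, where a count of 0 in a library still allows 3 UMIs by counting error. Binding values scaled to 1000000 are shares of a library's own UMIs in peaks. The study reports a transposition efficiency of A160P, K146D and K152L far below that of wild type, which such shares do not show. The MATα markers MF(ALPHA)1, MF(ALPHA)2, STE3 and SAG1 were present in every genotype, with a summed level of 2771 to 4136 CPM in wild type. In A160P this sum was 482 to 840 CPM and in K146D 1547 to 2696 CPM, both wholly below wild type. In K152L it was 1375 to 2985 CPM, mostly below. K150A, K150I and S158H lay between 2563 and 4947 CPM. The markers differed, with SAG1 at 25.8% of the wild-type mean in K146D and 28.2% in K152L. There MF(ALPHA)2 was at 57.4% and 68.7%, STE3 at 94.9% and 99.7%, and MF(ALPHA)1 at 100% and 102%. In A160P SAG1 was at 2.39%, MF(ALPHA)2 at 2.78%, STE3 at 30.8% and MF(ALPHA)1 at 47.9%. The part of these markers in the results below was not tested. 5 marker genes of MATa cells, BAR1, MFA1, MFA2, STE2 and AGA2, summed to 12.1 to 59.1 CPM. Replicates 4 and 5 stood apart from replicates 1, 2 and 3 in all genotypes: principal component 1 (54.5% of the variance) separated them, and 4367 of 6139 genes differed between these 2 sets in the edgeR fit. On component 2 replicate 4 lay below replicate 5 in wild type and above it in all 6 variants. Deviations of wild-type and variant libraries numbered 4 and 5 correlated less for equal numbers (median r = 0.315 over 12 pairs) than for unequal numbers (median r = 0.749 over 12 pairs), so the wild-type libraries with these numbers stand against their labels. Tests against wild type whose call they could set are also given without them, from a fit that keeps the replicate number as a block.

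PRM2 (YIL037C) lies on chromosome IX of the R64 assembly at 283029-284999, on the strand that runs towards lower coordinates, and encodes 656 residues. PRM4 (YPL156C, XVI, 255913-256767), PRM5 (YIL117C, IX, 140613-141569), PRM7 (YDL039C, IV, 381985-384081) and PRM10 (YJL108C, X, 217705-218856) run the same way, with 284, 318, 698 and 383 residues. PRM8 (YGL053W, VII, 402589-403302) and PRM9 (YAR031W, I, 186836-187732) run towards higher coordinates and encode 237 and 298 residues. All 7 were detected in all 35 libraries and passed the filter on low counts. The fewest UMIs in any library were 5 for PRM9, 6 for PRM8, 12 for PRM10, 18 for PRM4, 20 for PRM2, 22 for PRM5 and 265 for PRM7. The medians were lowest for PRM9 (15), PRM10 (27), PRM2 (34) and PRM8 (59), so counting error weighs most on PRM9 and PRM10. In bulk RNA, fewer cells with a transcript and less transcript per cell cannot be told apart.

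PRM5 was the member that fell in the main fit, which has genotype only and leaves out the replicate number. It was lower in A160P, K146D, K152L and K150A than in wild type, by 1.88-fold to 3.03-fold. No other member passed against wild type in any variant in that fit. With the replicate number as a block PRM2 also passed, lower in A160P, K146D, K152L and S158H, as given below. PRM5 encodes a membrane protein induced by pheromone and also by cell integrity signaling, the pathway that answers cell wall damage. In replicates 1 to 5 of wild type PRM5 was at 52.4, 64.6, 79.2, 53.7 and 60.0 CPM (62.0 ± 10.8, SD, n = 5). The lowest wild-type library was above 29 of the 30 libraries of the variants, the exception being replicate 3 of S158H at 52.5 CPM.

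In A160P the 5 libraries held 24.3, 23.7, 25.3, 15.0 and 17.8 CPM of PRM5, which left a wide gap to wild type. K152L held 19.6, 21.7, 23.9, 19.8 and 17.1 CPM, and K146D 28.1, 20.8, 28.4, 24.4 and 20.1 CPM. These 3 mating-defective variants overlapped each other and lay between 32.9% and 39.3% of the wild-type mean. The log2 fold changes of PRM5 were -1.53 ± 0.14 (SE) in A160P, -1.33 ± 0.14 in K146D and -1.60 ± 0.14 in K152L. Their adjusted p from edgeR's quasi-likelihood test, with Benjamini-Hochberg adjustment over 6139 genes, were 3.31e-09, 8.98e-08 and 2.07e-09. Of all genes tested, 0.928% passed in A160P, 0.7% in K146D and 0.896% in K152L, and in each of these variants PRM5 was 1 of 7 members to do so.

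The mating-competent variants had intermediate levels. K150A held 33.9, 29.8, 38.3, 31.1 and 31.8 CPM of PRM5, all above the mating-defective libraries and all below wild type. K150I held 40.9, 36.3, 47.0, 46.4 and 45.1 CPM, again with no library in the wild-type range, and S158H 34.4, 44.4, 52.5, 47.2 and 45.3 CPM. PRM5 fell in K150A by 0.91 on the log2 scale (SE 0.137, adjusted p = 0.00025 in edgeR), where 0.586% of genes passed and 1 of 7 members did. For K150I the change was -0.53 ± 0.14 with adjusted p = 0.245, and for S158H -0.47 ± 0.14 with adjusted p = 0.846. No member passed in these 2 variants, against 0.0652% and 0% of all genes. The unadjusted p was under 0.05 for 3 members and 2.57% of all genes in K150I and for 2 members and 2.92% of all genes, 179, in S158H, while DESeq2 called 0 members in both, 9 genes in K150I and 2 in S158H. With the replicate number as a block in edgeR, PRM5 passed in K150I (adjusted p = 0.0103) and S158H (adjusted p = 0.024), where 0.391% and 1.19% of genes passed. With replicates 1 to 3 against 4 and 5 as a covariate instead, K150I passed (adjusted p = 0.0418) and S158H did not (adjusted p = 0.125). With the block and without wild-type libraries 4 and 5, PRM5 was at -1.54 ± 0.123 in A160P, -1.34 ± 0.123 in K146D and -1.62 ± 0.125 in K152L. It was at -0.93 ± 0.121 in K150A, -0.56 ± 0.118 in K150I (adjusted p = 0.0061 in edgeR) and -0.51 ± 0.117 in S158H (adjusted p = 0.0105). PRM5 passed in all 6, where 1.93% (K150I) to 7.17% (K150A) of all genes did.

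Ordered by mean level, PRM5 ran from wild type through S158H (44.8 CPM), K150I (43.1), K150A (33.0), K146D (24.4) and A160P (21.2) to K152L (20.4). The gap from wild type to S158H, that from K150I to K150A and that from K150A to K146D were larger than the pooled SD of the genotypes on either side, and only the last separated them without overlap. S158H did not differ from K150I beyond the spread, nor did K146D, A160P and K152L differ in that order. The fall in A160P, K146D and K152L held in each deposited RNA-seq pool alone. Log2 fold changes ran from -1.24 to -1.50 over replicates 1 and 2, called experiment 1 here. Over replicates 3, 4 and 5, called experiment 2, they ran from -1.37 to -1.70. In K150A the PRM5 values were -0.86 and -0.91, and the second alone did not pass (adjusted p = 0.162 in edgeR).

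**Figure D1:**
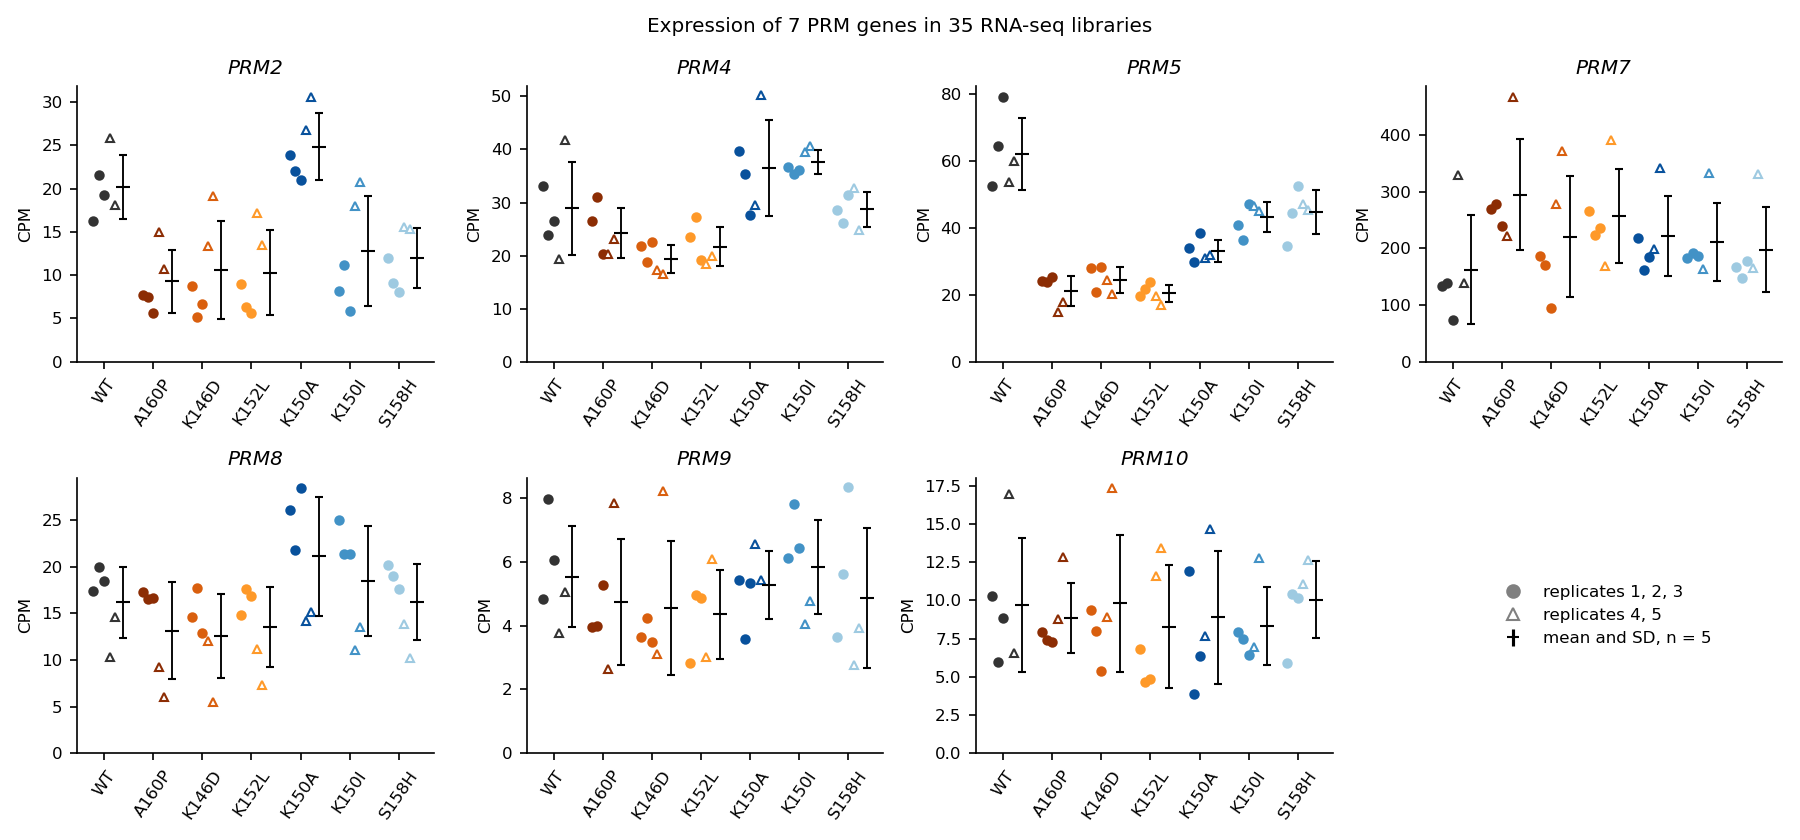
CPM of each of the 7 genes (vertical axes from 0) in the 5 libraries of each genotype (horizontal axes). Filled circles are replicates 1 to 3, open triangles replicates 4 and 5, and bars the mean and SD. The PRM5 panel steps down from 62.0 CPM in wild type to 20.4 CPM in K152L, whereas PRM9 and PRM10 overlap in all genotypes.

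STE12 itself moved with the genotype. Its transcript, counted from the plasmid, was at 156 ± 23.4 CPM (SD, n = 5) in wild type and had means of 215 CPM in S158H, 330 in K150I, 361 in K150A, 369 in K146D, 451 in K152L and 564 in A160P. Wild type, with the most PRM5, thus had the least STE12 transcript. The part of the STE12 level in the PRM5 result was not tested.

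Genes of the cell integrity pathway did not fall with PRM5 as a group. From a list of 12 (SLT2, RLM1, KDX1, PST1, CWP1, PIR3, SED1, GSC2, CRH1, CIS3, YLR194C and YNL058C), none passed in A160P, K146D or K152L, where the unadjusted p was under 0.05 for 1, 2 and 1 of them and DESeq2 called 1, 0 and 1. Over all genes tested the unadjusted p was under 0.05 for 4.79%, 3.84% and 5.64%, and DESeq2 called 1.12%, 0.928% and 1.21%. The median log2 fold changes of the list were 0.23, 0.25 and 0.04 in these variants, against 0.00 over all genes tested in each. In K150A 1 of 12 fell, and it was YNL058C, the paralog of PRM5. YNL058C had 109, 105, 138, 108 and 94.8 CPM in wild type against 67.6, 68.2, 74.2, 66.1 and 105 CPM in K150A, so 4 of 5 K150A libraries were below the lowest of wild type. Its log2 fold change was -0.54 ± 0.125 (adjusted p = 0.0289 in edgeR). With the replicate block YNL058C also fell in K152L (-0.49, adjusted p = 0.000793), PST1 rose in A160P, K152L and S158H, and CIS3 rose in A160P. Without wild-type libraries 4 and 5 the blocked fit had YNL058C lower in all variants but S158H (-0.32 in A160P to -0.67 in K150A, adjusted p of at most 0.0408) and PST1 higher in A160P, K152L and S158H.

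PRM4 did not pass against wild type in any variant, yet it separated the 2 classes of variants. PRM4 encodes a pheromone-induced membrane protein of unknown role. Wild-type libraries held 33.1, 23.9, 26.5, 19.3 and 41.9 CPM, a range that took in most other libraries. K146D was lowest, at 21.8, 18.9, 22.5, 17.3 and 16.5 CPM, and K150I highest, at 36.6, 35.3, 36.2, 39.5 and 40.7 CPM. The ranges of these 2 variants did not overlap, and both overlapped wild type. The log2 fold changes of PRM4 against wild type were -0.55 ± 0.17 in K146D, -0.41 ± 0.17 in K152L and -0.25 ± 0.17 in A160P, against 0.38 ± 0.17 in K150I, 0.34 ± 0.17 in K150A and -0.01 ± 0.17 in S158H. Their adjusted p in edgeR ran from 0.256 to 1.

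The contrast of the 3 mating-defective with the 3 mating-competent variants uses no wild-type library. PRM4 had a lowest, median and highest level of 16.5, 20.2 and 31.1 CPM in the 15 mating-defective libraries. The 15 mating-competent libraries had 24.8, 35.3 and 50.3 CPM, and 12 mating-defective libraries lay below all of them. The difference of PRM4 was -0.64 ± 0.0973 on the log2 scale (adjusted p = 4.97e-05 in edgeR). For PRM5 the values were 15.0, 21.7 and 28.4 CPM against 29.8, 40.9 and 52.5 CPM, with no overlap. Its difference was -0.85 ± 0.0811 (adjusted p = 4.93e-09). These 2 of 7 members passed, both lower in the mating-defective variants, where 1.14% of all genes tested passed, 1.03% lower and 0.114% higher, and the median difference was -0.48 over the members and 0.01 over all genes. Both passed in each experiment alone, with differences of -0.44 and -0.80 for PRM4 and of -0.67 and -0.98 for PRM5.

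With the replicate number as a block PRM2 and PRM8 joined them, making 4 of 7 members, while 3.13% of all genes passed, 2.38% lower and 0.749% higher. PRM2 differed by -0.70 ± 0.119 (adjusted p = 0.000218 in edgeR) and PRM8 by -0.49 ± 0.0818 (adjusted p = 0.000156). Without the block their adjusted p were 0.131 and 0.34. Leaving wild-type libraries 4 and 5 out of the blocked fit gave -0.70 for PRM2 and -0.50 for PRM8.

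**Figure D2:**
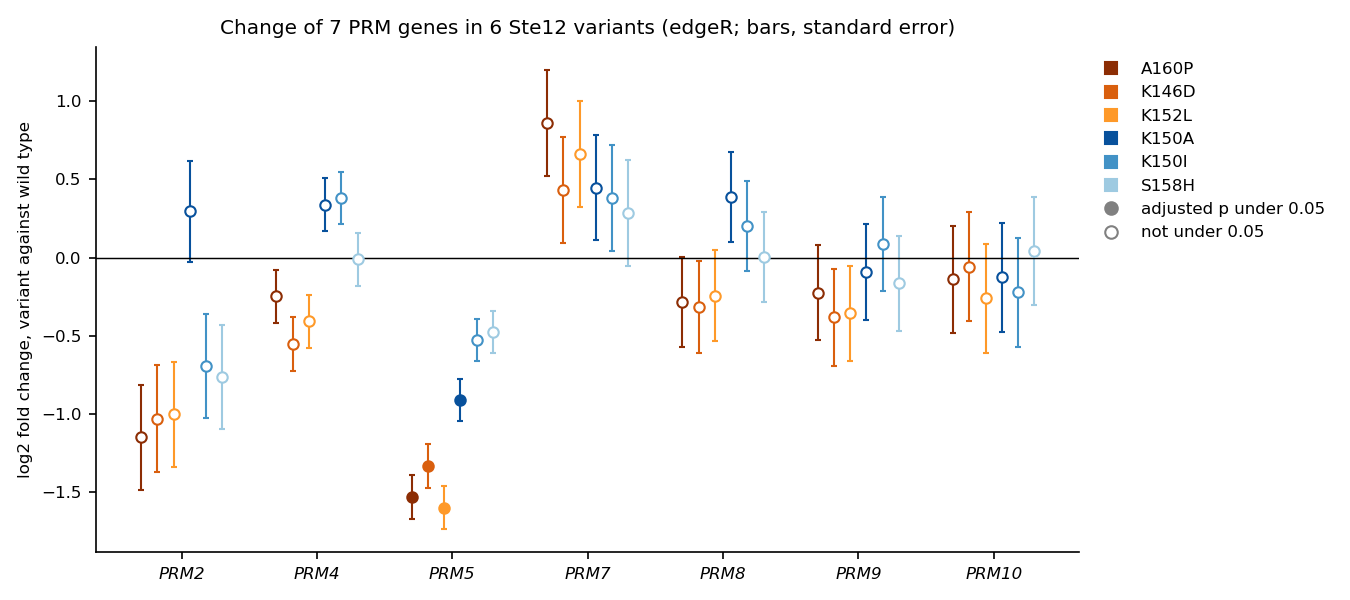
Log2 fold change (vertical axis) of each member (horizontal axis) in each variant against wild type, with the standard error from edgeR as bars and filled points where the adjusted p was under 0.05. PRM5 holds all 4 filled points of this fit without the replicate number, in A160P, K146D, K152L and K150A.

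PRM2, which acts in nuclear fusion after mating, had a wider spread between replicates than PRM5. Its wild-type libraries held 16.2, 21.5, 19.3, 25.9 and 18.2 CPM. A160P held 7.70, 7.42, 5.67, 15.0 and 10.7 CPM, all below wild type, as were the 5 libraries of S158H, of which the highest had 15.5 CPM. K150A held 23.9, 22.0, 20.9, 26.8 and 30.6 CPM and overlapped wild type, as K150I, K146D and K152L did through replicate 4, replicate 5 or both. PRM2 was higher in replicates 4 and 5 than in replicates 1 to 3, with means of 18.6 (n = 14) and 11.5 CPM (n = 21). Against wild type the log2 fold changes of PRM2 were -1.15 ± 0.338 in A160P, -1.03 ± 0.343 in K146D, -1.0 ± 0.336 in K152L, -0.76 ± 0.334 in S158H, -0.69 ± 0.334 in K150I and 0.30 ± 0.323 in K150A. None passed (adjusted p from 0.147 to 1 in edgeR).

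The call on PRM2 depended on whether the replicate number was in the model. With it as a block, PRM2 passed in A160P (-1.21 ± 0.198, adjusted p = 0.000134 in edgeR), K146D (adjusted p = 0.000874), K152L (adjusted p = 0.0006) and S158H (adjusted p = 0.04), where 2.59%, 1.92%, 3.62% and 1.19% of genes passed. The S158H call was lost with replicates 1 to 3 against 4 and 5 as a covariate (adjusted p = 0.116), and the other 3 held. K150I did not pass with the block (adjusted p = 0.0693), and in K150A, where 4.82% of genes passed, PRM2 was at 0.28 (adjusted p = 0.431). With wild-type libraries 4 and 5 left out of the blocked fit, PRM2 was at -1.46 in A160P, -1.35 in K146D, -1.33 in K152L, -1.05 in S158H and -1.04 in K150I, all with adjusted p of at most 0.00367. In experiment 1 alone PRM2 passed in A160P, K146D and K152L, and in experiment 2 alone in none (adjusted p = 1 in each).

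PRM8 and PRM9 belong to the DUP240 family of small membrane proteins, whose members can bind COPII coat proteins of vesicles that leave the endoplasmic reticulum. Their coding sequences resemble those of MST27, beside PRM8, and MST28, beside PRM9. Reads could have been shared among these copies, so both levels are uncertain to that extent. PRM8 held 17.4, 19.9, 18.5, 10.4 and 14.6 CPM in wild type, and 26.1, 21.7, 28.4, 14.2 and 15.1 CPM in K150A, its highest genotype. It was lower in replicates 4 and 5 than in replicates 1 to 3 in every genotype, with a mean of 19.1 CPM in the latter and a difference of -0.79 ± 0.0837 on the log2 scale (adjusted p = 6.61e-10 in edgeR). That was larger than any difference of PRM8 between a variant and wild type, which ran from -0.31 ± 0.293 in K146D to 0.39 ± 0.287 in K150A (adjusted p from 0.911 to 1). With the block and without wild-type libraries 4 and 5 the K150A value was 0.47 ± 0.147 (adjusted p = 0.0487 in edgeR), where 7.17% of all genes passed.

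PRM9 was the member with the fewest UMIs, 5 to 28 per library. In wild type it was at 4.85, 7.97, 6.07, 3.77 and 5.04 CPM, and the genotype means ran only from 4.35 CPM in K152L to 5.84 CPM in K150I. Its largest fitted change was -0.38 ± 0.31 in K146D, and at this depth no difference was detectable. The DUP240 relatives behaved alike. Of 8 relatives 7 could be tested, and none passed in any of the 7 contrasts, whether with edgeR, with DESeq2 or at an unadjusted p under 0.05. With the replicate block 1 did, YAR028W, lower by -0.15 ± 0.0423 in mating-defective than in mating-competent variants (adjusted p = 0.0404 in edgeR). MST28 was at 4.59 ± 1.44 CPM (SD, n = 5) in wild type and at 6.82 ± 0.577 CPM in S158H, its highest genotype. MST27 had a mean of 0.759 to 1.93 CPM and was not tested.

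PRM7 and PRM10 varied widely with the library, and whether PRM7 passed against wild type depended on the fit. PRM7, which lies beside BSC1 and whose promoter is known for Gcn4 elements that answer amino acid starvation, held 133, 139, 73.1, 329 and 139 CPM in wild type. A160P held 269, 278, 239, 222 and 466 CPM and had the highest mean of the 7 genotypes (295 ± 98.6 CPM, SD, n = 5). Replicate 5 was the highest library of PRM7 in all 6 variants, at 330 to 466 CPM, whereas in wild type replicate 4 was. PRM10, a membrane protein without a known role, showed the same, at 12.6 to 17.4 CPM in replicate 5 of the variants, 16.9 CPM in replicate 4 of wild type and 6.56 CPM in its replicate 5.

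PRM7 was above wild type in all 6 variants by the fit, with log2 fold changes from 0.28 ± 0.338 in S158H to 0.86 ± 0.339 in A160P, and none passed (adjusted p from 0.623 to 1 in edgeR). With the block and without wild-type libraries 4 and 5, PRM7 was at 1.15 ± 0.197 in A160P (adjusted p = 0.000225 in edgeR). It was at 0.96 ± 0.196 in K152L (adjusted p = 0.0015) and 0.73 in K150A (adjusted p = 0.0181). Of all genes 4.79%, 6.75% and 7.17% passed in that order. In experiment 1 alone, which holds neither of these wild-type libraries, PRM7 was at 1.01, 0.85 and 0.49 in these 3 variants and passed too. In experiment 2 alone it was at 0.79 ± 0.556, 0.56 ± 0.554 and 0.44 ± 0.554 and did not. PRM10 stayed between -0.26 ± 0.35 in K152L and 0.04 ± 0.35 in S158H, and passed in no contrast under any fit run.

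**Figure D3:**
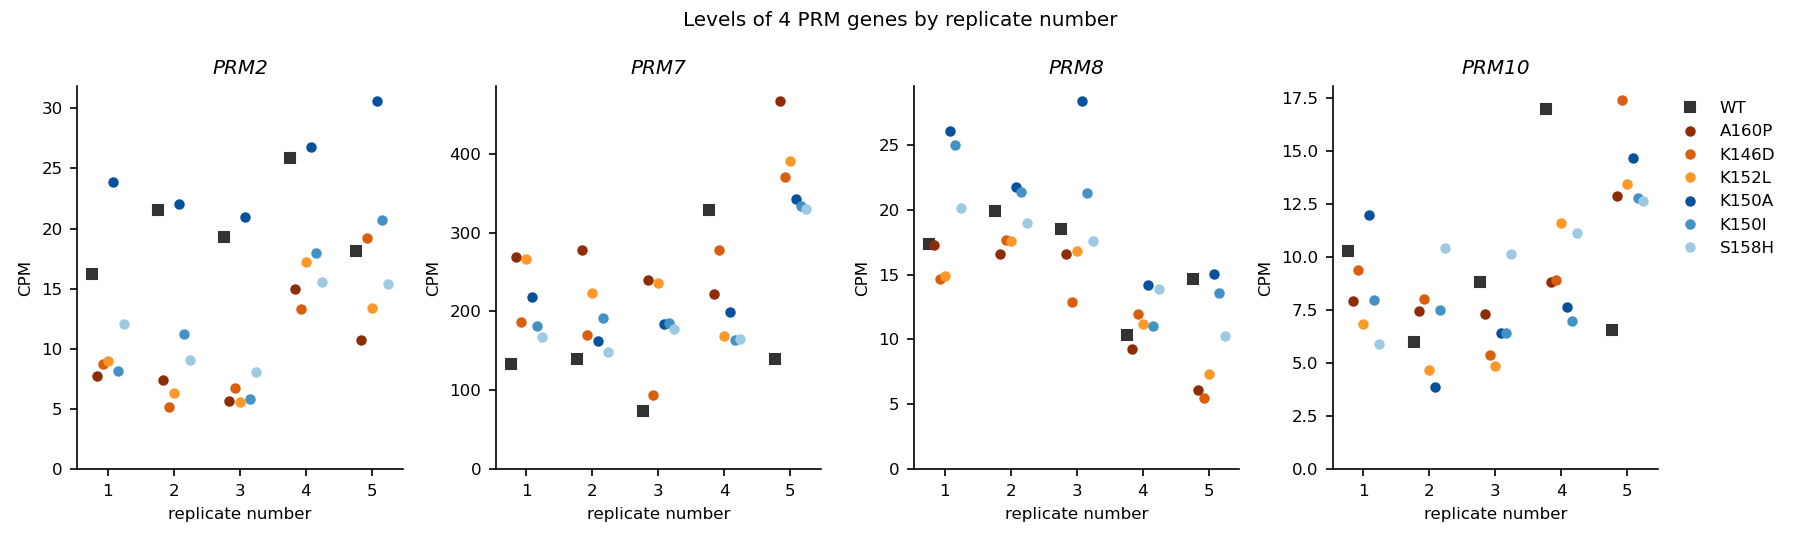
CPM (vertical axes from 0) of PRM2, PRM7, PRM8 and PRM10 by replicate number (horizontal axes), with wild type as squares and the 6 variants as circles. At replicate 5 the 6 variants lie at 330 to 466 CPM for PRM7 and wild type at 139 CPM, and at replicate 4 wild type is the highest, at 329 CPM.

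The other PRM genes and the wider pheromone response give the scale. PRM1, for plasma membrane fusion, fell in A160P (-1.88 ± 0.394), K146D (-1.62 ± 0.396) and K152L (-1.80 ± 0.393). PRM3, for nuclear fusion, fell in K146D (-1.73 ± 0.401) and rose in K150A (1.86 ± 0.337). PRM6, a potassium channel gene also called KCH2, was at -2.63 ± 0.678 in A160P (adjusted p = 0.0538 in edgeR), and its relative KCH1 stayed between -0.44 and -0.04 and did not pass. With the replicate block PRM3 also passed in A160P, PRM6 in A160P, K146D and K152L, and KCH1 in these 3 variants and in K150A, all lower than wild type (adjusted p from 0.000136 to 0.0417). Without wild-type libraries 4 and 5 in that fit, PRM1 and PRM6 passed in A160P, K146D and K152L, KCH1 passed in A160P, K152L and K150A, and PRM3 rose in K150A (2.10 ± 0.298) but no longer passed in K146D (adjusted p = 0.0673) or A160P (adjusted p = 0.0974). From a list of 20 other pheromone-response genes, 13 fell in A160P, 12 in K146D and 13 in K152L, while STE12 rose in each of the 3, against 0.847%, 0.684% and 0.717% of all genes that fell. In K150A 5 of the 20 rose, with STE12 from the plasmid among these 5, and none fell, while 0.277% of all genes rose. The unadjusted p was under 0.05 for 8 of the 20 and DESeq2 called 6, in either direction, against 7.74% and 0.945% of all genes. With the replicate block 7 of the 20 rose, STE12 again among them, and KSS1 fell in K150A, against 2.17% and 2.66% of all genes. The same 8 passed without wild-type libraries 4 and 5. In A160P, K146D and K152L the latter fit had 15, 13 and 14 of the 20 lower, against 2.89%, 1.53% and 3.28% of all genes. FUS1, for cell fusion, was at -2.76 ± 0.397 in A160P and at -0.24 ± 0.351 in K150A. KAR4, a partner of Ste12 at karyogamy genes, was at -1.39 ± 0.132 in A160P and at 0.87 ± 0.126 in K150A (adjusted p = 0.000148). In K150A, then, PRM5 fell in the same libraries in which KAR4 and PRM3 rose.

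Across the 35 libraries, after the mean of each replicate number was taken off log2(CPM + 1), the members differed in which genes they resembled. PRM2 was most like PRM6 (Pearson r = 0.827), FIG2 (0.826) and PRM1 (0.794). PRM4 was most like AGA1 (0.799), KAR4 (0.791) and FUS2 (0.789), and PRM8 most like FIG1 (0.790), AGA1 (0.769) and KAR4 (0.765). All of these are genes of the mating response. PRM5 was most like RGC1 (0.892), FAR1 (0.876) and YCL021W-A (0.872). PRM7 was most like HXT1 (0.906), GPP1 (0.875) and RPL13A (0.870), which are genes of hexose transport, glycerol synthesis and the ribosome. PRM9 was most like RRN6 (0.611), NUR1 (0.560) and NTO1 (0.552), and PRM10 most like SNF1 (0.665), PFS2 (0.636) and FRS2 (0.626). Among the members the closest were PRM4 and PRM8 (0.734), and PRM5 and PRM7 were the most opposed (-0.552). These values describe libraries that share genotypes, depth and experiment. They also include the wild-type libraries that stand against their labels, from which the mean of the labelled replicate number was taken off. No version without those libraries is given here. Their part in these values, those of PRM7 among them, was not tested.

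Calling-card peaks lay in the promoter windows, from 1000 bp before to 200 bp after the coding start, of 3 members: PRM4 with 1 peak, PRM5 with 2 and PRM8 with 3. PRM2, PRM7, PRM9 and PRM10 had none, and of 6002 genes with a window 27.4% had at least 1. Of the 6 peaks 4 also lay in the window of the gene across the promoter. The nearest peak to PRM10 was centred 1647.5 bp upstream, on X at 220453-220554 in the windows of YJL107C and IME2, with 24 and 30 UMIs in the replicates of S158H. The next gene upstream of PRM10, YJL107C, overlaps its start on the same strand.

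At PRM4 wild type bound and K150A bound more. The peak on XVI at 256861-257117, centred 222 bp before the coding start, held 20 and 9 UMIs in the wild-type libraries and 64 and 67 in K150A. It held 0 and 3 UMIs in K146D, 1 and 0 in K152L, 1 and 0 in S158H, 0 and 1 in K150I, and 0 in both of A160P. The 2 K150A libraries were thus above wild type and all 10 libraries of the other variants were below it. Pooled over replicates, K150A had 7454 UMIs per 1000000 against 1531 in wild type, a 4.87-fold difference. The share of A160P was at least 7.14-fold lower than that of wild type, from a floor of 3 UMIs over its 2 libraries.

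Binding was tested with limma on log2(UMIs per 1000000 + 100) over 981 windows, a scale on which changes of windows with few UMIs are understated. The change at PRM4 was 2.23 ± 0.745 (SE) in K150A (adjusted p = 0.0387) and ran from -2.95 ± 0.745 in K146D to -4.01 ± 0.745 in A160P, with adjusted p from 0.00188 to 0.00815 in the 5 other variants. Between 36.9% and 48.8% of all windows passed in these comparisons (A160P 40%, K146D 48.8%, K150A 42.6%, K150I 39.7%, K152L 36.9% and S158H 41.4%), so passing does not set a member apart. The K150A call did not hold with either wild-type or either K150A library left out (adjusted p from 0.123 to 0.136), nor with either A160P library left out (0.0544 and 0.0547), and that of K146D did not hold without its first library (-1.89, adjusted p = 0.0706). The K150A call was also lost with no filter (0.0535), with the replicate block (0.0557), with the 2 largest peaks left out (0.0519) and with a pseudocount of 10 (0.478), and held with edgeR on the recovered UMIs (2.28, adjusted p = 5.32e-05) and a proportion test. A pseudocount of 10 also ended the PRM4 calls of K146D, K150I, K152L and S158H (adjusted p from 0.0785 to 0.109), and that of A160P held.

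At PRM5 most of the K146D signal and most of the wild-type signal lay in different peaks. A peak on IX at 141656-141757, centred 137.5 bp before the coding start, held 41 and 55 UMIs in the K146D libraries and 0 in the 12 other libraries. A second peak, at 142138-142238 and centred 619 bp before the start, held 18 and 1 UMIs in wild type, 1 and 1 in K146D and 0 in the 10 others. It also lies in the window of HIS5, a histidine biosynthesis gene read in the other direction, whose transcript passed in no variant. Summed over both peaks, K146D had 5633 UMIs per 1000000 against 1003 in wild type, a 5.62-fold larger share. Given the lower transposition efficiency that the study reports for K146D, a larger share need not mean more binding in absolute terms. The change in limma was 3.17 ± 0.636 (adjusted p = 0.00224). That change was 4.44 without wild-type replicate 1 and 1.91 without wild-type replicate 2. The window met the filter on low UMIs only through its K146D libraries, which favoured a call of more UMIs in K146D.

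The 5 other variants had 0 UMIs in both PRM5 peaks, which made them at least 4.00-fold to 5.88-fold lower than wild type from a floor of 3 UMIs per variant. The change in limma was -2.65 ± 0.636 in each (adjusted p from 0.00743 to 0.00804). The wild-type value rests on replicate 1, with 18 of its 19 UMIs. Without that library the change was -1.39 and stood on 1 UMI, which is under the floor. With a window of 500 bp the second peak falls out, wild type is at 0 at PRM5, and K146D alone has a signal. The windows of other cell integrity genes can be set beside this, 6 of the 12 having been tested. In K146D 4 of the 6 (CRH1, GSC2, PIR3 and YNL058C) had more UMIs than wild type and CIS3 had fewer, while 25.6% of all windows tested had more and 23.2% fewer. This was in part shared, as CIS3 had fewer in every other variant too. PIR3 also had more in A160P and K152L, and CRH1 in K150A. Shares of all windows in these variants are given below. At YNL058C the change was 3.28 ± 0.745 in K146D (adjusted p = 0.00458), and it passed in no other variant.

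**Figure D4:**
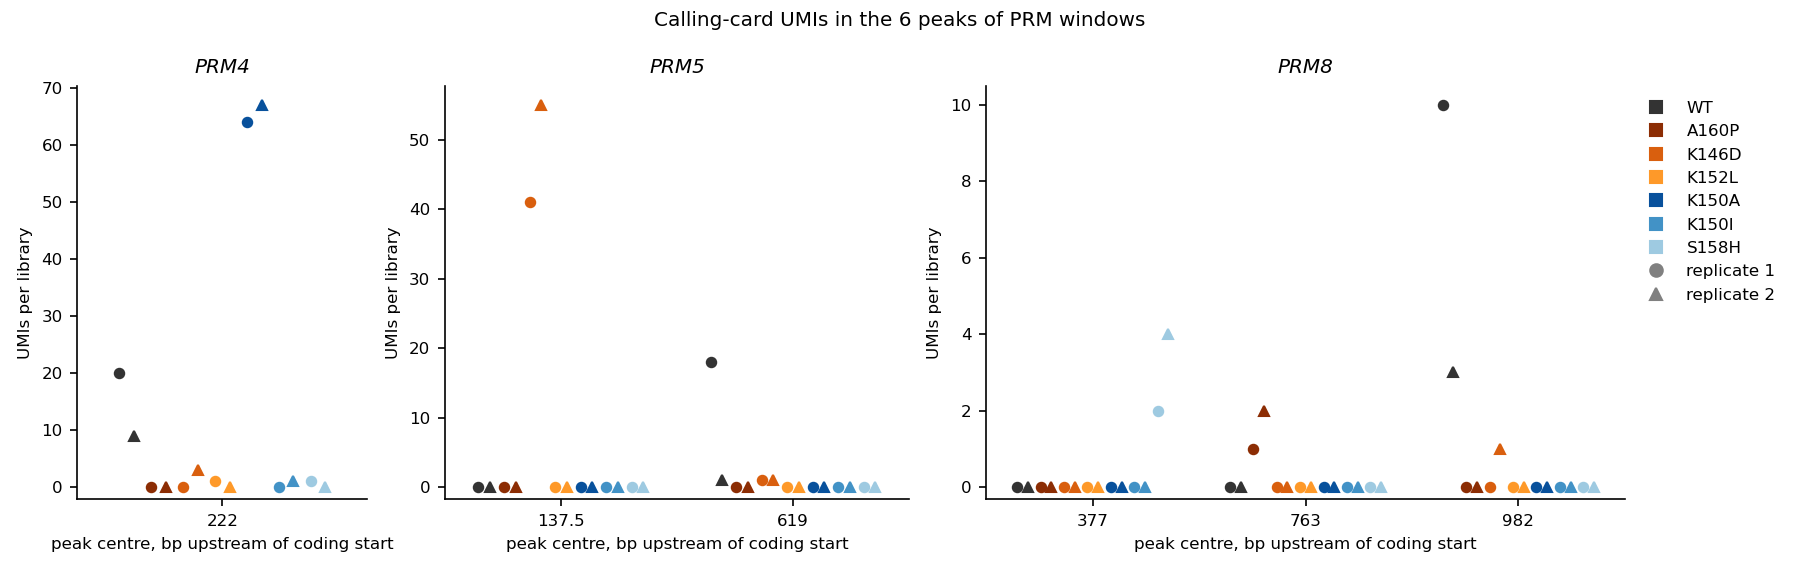
UMIs (vertical axes) of each library in the 6 peaks of the PRM4, PRM5 and PRM8 windows, placed by the distance of the peak centre from the coding start in bp (horizontal axes). Circles are replicate 1 and triangles replicate 2. The 64 and 67 UMIs of K150A at PRM4 and the 41 and 55 UMIs of K146D at PRM5 stand above all other libraries of those peaks.

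PRM8 had 3 peaks with few UMIs, and all 3 lie between it and ERV14, a gene for export from the endoplasmic reticulum that is read the other way. The peak on VII at 401557-401657, 982 bp before the coding start, held 10 and 3 UMIs in wild type, 0 and 1 in K146D and 0 elsewhere. The peak at 401776-401876 held 1 and 2 UMIs in A160P only, and the one at 402162-402262 held 2 and 4 in S158H only. Apart from the first wild-type library, no library held over 4 UMIs in any of the 3. The window met the filter on low UMIs only through its wild-type libraries, which favoured calls of fewer UMIs. In limma the window was lower in A160P (-1.23 ± 0.419, adjusted p = 0.0431), K146D (-2.31), K150A, K150I and K152L (each -2.85 ± 0.419), while S158H was at -0.32 ± 0.419 (adjusted p = 0.64). The A160P call did not hold with edgeR on recovered UMIs (adjusted p = 0.243) or without either wild-type, K150A, K150I or K152L library or the first A160P library (adjusted p from 0.0502 to 0.257). ERV14 transcripts passed in no variant.

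Over the 3 windows 17 of 18 member comparisons passed, 15 with fewer and 2 with more UMIs than wild type. PRM8 met the filter on low UMIs only through its wild-type libraries, and PRM5 only through its K146D libraries. The calls of fewer UMIs at PRM8 and of more UMIs in K146D at PRM5 were thus favoured by the filter. Of all windows tested 29.6% had fewer UMIs in A160P, 23.2% in K146D, 23.6% in K150A, 26.1% in K150I, 26% in K152L and 24.7% in S158H. In the same order 10.4%, 25.6%, 19%, 13.6%, 10.9% and 16.7% had more. Set beside expression, these changes did not run in 1 direction. K150A had the most UMIs at PRM4, and its PRM4 transcript was at 36.5 ± 9.05 CPM (SD, n = 5) against 28.9 ± 8.78 CPM in wild type. K150I, with 0 and 1 UMIs, was at 37.7 ± 2.29 CPM. K146D had the most UMIs at PRM5 and 24.4 ± 3.92 CPM of its transcript, with libraries that overlapped those of A160P and K152L, which had none. PRM2, with the next largest changes of transcript after PRM5, had no peak in its window.

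**Figure D5:**
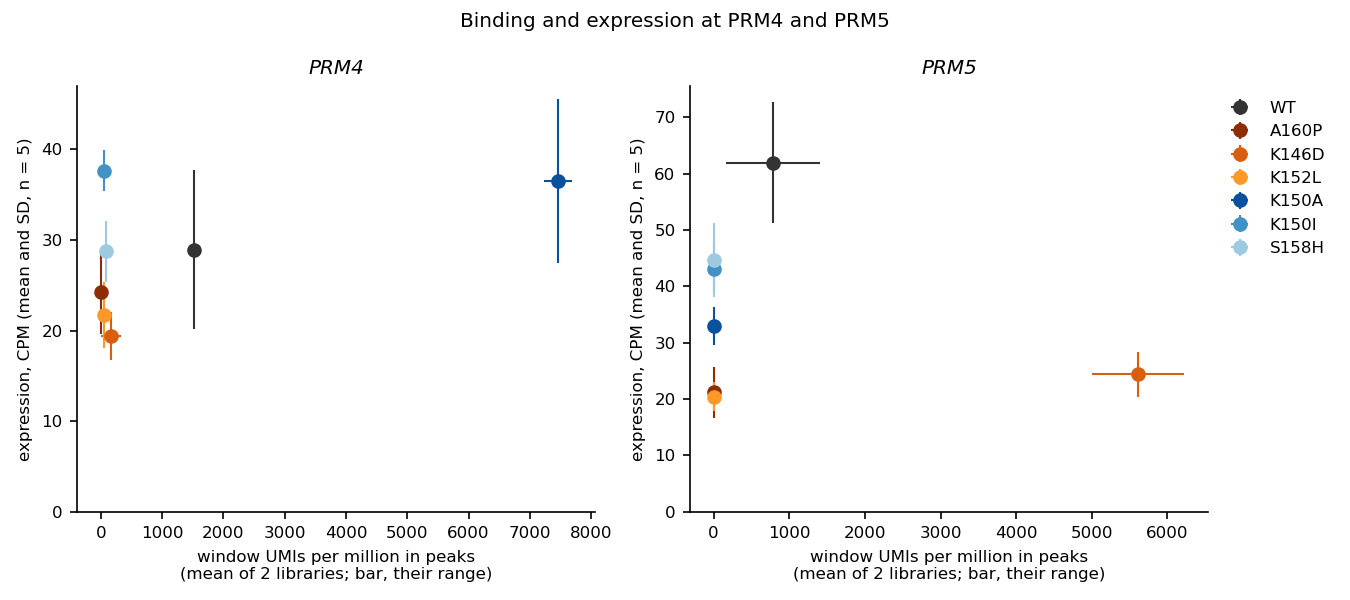
Mean expression in CPM (vertical axes, bars SD, n = 5) against UMIs per 1000000 in the promoter window (horizontal axes, mean of 2 libraries, bars their range) for PRM4 and PRM5 in the 7 genotypes. K150A lies far right at PRM4 with 36.5 CPM, and K146D far right at PRM5 with 24.4 CPM, whereas wild type has 62.0 CPM of PRM5 at fewer UMIs.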

How the data were processed

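RNA-seq was analysed in 35 libraries (7 genotypes, 5 replicates) and calling cards in 14 (7 genotypes, 2 replicates). The authors primed cDNA with oligo-dT that carried UMIs, so reads come from transcript 3′ ends, and deposited raw UMI counts per gene. Replicates 1 and 2 were deposited as 1 pool and replicates 3, 4 and 5 as another, here called experiments 1 and 2. The labels do not say whether these pools were separate experiments. The genotype and replicate of a library were read from the column names of the count table. The submitters' processing notes name bcl2fastq, Trim Galore 0.4.1, STAR and MACS2, and the R64 build. For calling cards the authors deposited, for 2188 peaks, the natural log of UMIs per 1000000 plus 1, although the accompanying description calls them counts. Undoing it gave whole UMIs, within 0.001, for 100% of 30632 values. Transposase-only libraries, promoter sequences and motifs were not analysed here.

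Counts were tested with edgeR 4.0.16 in R 4.3.3 (quasi-likelihood test after TMM scaling and filterByExpr on genotype, p adjusted by Benjamini-Hochberg, threshold 0.05) in 1 fit of 35 libraries, 1 coefficient per genotype, URA3 left out as in the study. CPM use the same TMM scaling. In all 6139 genes were tested, and the common dispersion was 0.0692. Binding was tested with limma 3.58.1 with trend on log2(UMIs per 1000000 + 100) for windows that reached 3 UMIs in 2 or more libraries, peaks being assigned to windows by any overlap. Scripts were tested on simulated data. Tried as alternatives were DESeq2 1.42.0, RLE size factors, no filter, URA3 kept, experiment as a covariate, each experiment alone, a replicate block, each variant with wild type alone and each library left out, and for binding a pseudocount of 10, no filter, a proportion test, edgeR, a replicate block, the 2 largest peaks left out and a 500 bp window.

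The labels number the replicates without saying what a number stands for. Same-numbered variant and wild-type RNA-seq libraries deviated together from their genotype means in 30 of 30 pairs (r from 0.191 to 0.763), and 48 of 120 pairs with different numbers also had r above 0.1. Within replicates 1 to 3 the median r was 0.630 for equal and 0.514 for different numbers, so much of the agreement follows the difference between replicates 1 to 3 and 4 and 5. By a rule of r above 0.1 in every pair, the numbers were treated as pairing the libraries, and blocked values stand beside results whose call they change. The rule cannot tell pairing by number from that difference. Pairs of different numbers within each set also had r above 0.1 (lowest 0.353 and 0.421). For numbers 4 and 5 equal numbers agreed less (median r = 0.315) than unequal ones (0.749), so pairing by number was not shown. Libraries 4 and 5 of wild type are described with the data.

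The members and gene lists were chosen with earlier results of these data known. The text names all 7 members, PRM1, PRM3, PRM6 and KCH1, lists of pheromone-response genes (values for FUS1 and KAR4), DUP240 relatives and cell integrity genes, genes across a shared promoter, MATα and MATa markers, and the 3 genes most like each member. PRM6 and KCH1 had been listed as 1 gene and are given separately. YNL058C and STE12 were singled out after their values had been seen.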

Additional observations from a re-analysis of the deposited data

Results flagged for a closer look

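In 7 of 49 groups of 5 libraries (7 members in 7 genotypes) 1 library stood far from the other 4 by the gap to its nearest neighbour, where chance alone flags about 1 group in 20. PRM7 was highest in wild-type replicate 4, at 329 CPM, and in replicate 5 of A160P (466 CPM), K150I (334 CPM) and S158H (330 CPM). PRM10 was highest in replicate 5 of A160P (12.8 CPM) and of K150I (12.8 CPM). PRM9 was highest in replicate 5 of K146D, at 8.23 CPM, which is 9 UMIs in the shallowest library. In these groups the library that stood out was number 5 in the variants and number 4 in wild type. In tests of whether a member's change differed between the 2 RNA-seq experiments none passed. The lowest unadjusted p was 0.141 over 42 interaction tests in edgeR (adjusted p = 1). No gene of any kind passed this test in any variant, so the result does not set the members apart. Experiment 2 also joins replicates 4 and 5 with a replicate from which they stood apart. These tests therefore cannot show that the changes of the members were stable.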

How the results depend on the processing

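The number of member calls against wild type, 4 over 6 comparisons, all for PRM5, was also 4 with RLE size factors, DESeq2, no filter, URA3 kept, experiment as a covariate and each variant fitted with wild type alone, and lay between 4 and 4 with each of 35 libraries left out. It was 10 with the replicate block, 11 in experiment 1 alone, 3 in experiment 2 alone, 8 with replicates 1 to 3 against 4 and 5 as a covariate and 15 with the block and without wild-type libraries 4 and 5. The last 2 were chosen after seeing the data. Shares of all genes that passed also rose. They were 0% to 0.928% in the main fit, 0.391% to 4.82% with the block and 1.93% to 7.17% in the last fit. With the covariate 5 genes (S158H) to 167 genes (K150A) of 6139 passed. Shares for experiments 1 and 2 alone are not given here. For mating-defective against mating-competent variants the count of 2 became 4 with the replicate block, 5 in experiment 1 alone, and 4 in each of the 2 added fits, and ran from 2 to 3 with a library left out. PRM2 was the third, without K146D replicate 5 (adjusted p = 0.0422 in edgeR). In this contrast 1.14% of all genes passed in the main fit, 3.13% with the block and 5.58% also without wild-type libraries 4 and 5. With the covariate 138 of 6139 genes did. No fit turned the direction of a call on expression.

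For binding, 17 calls became 11 with a pseudocount of 10 and 7 with a 500 bp window, in which 5 of 6 PRM5 comparisons had 0 UMIs on both sides and gave no value. The other settings gave 15 or 16, the replicate block 16, and single libraries left out 15 to 17. Where 1 library of a pair was left out, the lone library was assumed to vary like the other groups. Beyond the window and the number of libraries, the cause of these shifts was not tested. Depth limits PRM9 in expression, and PRM8 and the wild-type signal at PRM5 in binding, where single libraries held 1 to 18 UMIs.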
